A study of Mus musculus with 12 samples.

Results

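The genes described here encode the enzymes that cut and trim prohormones in the secretory granule, the small proteins that chaperone or inhibit those enzymes, and the granin proteins stored beside the hormones. They are the 10 mouse genes Pcsk1, Pcsk2, Cpe, Pcsk1n, Scg5, Chga, Chgb, Scg2, Scg3 and Vgf, picked by symbol and matched through their Ensembl gene identifiers to 10 of the 37991 rows of the count table. Their RNA was measured by paired-end bulk RNA-seq in pancreatic islets of male mice of the C57BL/6 strain. Tg7 mice overexpress miR-7 specifically in β-cells, and the Wt mice were their littermates without the transgene. Both genotypes were collected at 2 weeks (2w) and at 12 weeks (12w) of age, with 3 libraries in each of the 4 groups. The comparison asks how islet gene expression differs when β-cells lose their identity, before and after the onset of diabetes in this model. Each library was a pool of islets from several animals, so the p values measure the spread between pools and not between single mice. The 12w Wt libraries carry the numbers 1, 2 and 4.

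Peptide hormones are made as longer precursors that enter the secretory granule with the proteins that process them. The prohormone convertases PC1/3 (gene Pcsk1) and PC2 (Pcsk2) cut the precursors after pairs of basic residues, and carboxypeptidase E (Cpe) then removes those residues. ProSAAS (Pcsk1n) inhibits PC1/3, whereas 7B2 (Scg5) is the chaperone that PC2 needs to mature. The granins Chga, Chgb, Scg2 and Scg3 are acidic proteins that aggregate with the cargo as the granule forms, and Vgf is a related precursor of several peptides. Many of these genes are active in several endocrine cell types of the islet, whereas PC1/3 is mainly a β-cell convertase and adult α-cells process proglucagon with PC2.

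Tg7 mice overexpress miR-7, and a microRNA pairs with its targets mainly through its seed, bases 2 to 8 from the 5′ end. The mature sequences, taken from RefSeq (GRCm38.p6), are shown because their seed was searched in the members' 3′ UTRs. The seed is in capitals and is shared by both sequences.
miR-7a-5p: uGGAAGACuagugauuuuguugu
miR-7b-5p: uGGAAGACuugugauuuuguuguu

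In the longest annotated 3′ UTR of each member (GENCODE vM1 on NCBIM37, also called mm9), a match of at least 7 bases to this seed was found in 2 of the 10 genes, Pcsk1n and Chga. Among the 14406 tested genes with an annotated 3′ UTR, 24.9% held such a match. The member matches are shown in capitals with the bases around them.
Pcsk1n 3′ UTR, chrX:7501260-7501288, + strand: ttttcaactttGTCTTCCttttggaagca
Chga 3′ UTR, chr12:103803095-103803123, + strand: ctagaagtttcTCTTCCAccttcttatcc
The match in Pcsk1n pairs with the full seed and lies at base 1042 of a 3′ UTR of 1307 bases. The match in Chga starts at base 203 of 334 and pairs with bases 2 to 7 of the miRNA, followed by an A opposite its first base. Chgb and Pcsk2 held 1 match of 6 bases each, and the other 6 members held none. At the level of 6 bases or more this made 4 of 10 members, and 45.1% of all tested genes with an annotated 3′ UTR. These shares were not matched for length. The median 3′ UTR of the tested genes was 1151 bases. Apart from Pcsk2 (2474) and Pcsk1n (1307), the members' 3′ UTRs were 179 to 565 bases long.

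Promoter windows from 250 bases before to 50 after the annotated start were held in RefSeq (GRCm38.p6) for 8 of the 10 members. Cpe and Vgf had no entry. Each window was searched on both strands for the cAMP response element TGACGTCA, for its shorter core TGACG, which the longer motif contains on each strand, and for the TATA box TATAAA. The windows of Pcsk1, Chgb and Scg2 held the full element, starting at -78, -72 and -68 relative to the annotated start. Of all 32851 promoters of this length in the table, 1.79% held it. These windows are printed because the genes share this element and had different profiles over the 4 groups. Motif matches are in capitals.
Pcsk1 promoter, chr13:75089607-75089906, + strand: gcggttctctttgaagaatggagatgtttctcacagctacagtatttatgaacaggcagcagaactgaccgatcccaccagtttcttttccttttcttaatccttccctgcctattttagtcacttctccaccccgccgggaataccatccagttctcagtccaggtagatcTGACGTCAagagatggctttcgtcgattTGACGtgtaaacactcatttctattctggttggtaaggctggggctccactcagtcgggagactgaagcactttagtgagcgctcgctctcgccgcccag
Chgb promoter, chr2:132781392-132781691, + strand: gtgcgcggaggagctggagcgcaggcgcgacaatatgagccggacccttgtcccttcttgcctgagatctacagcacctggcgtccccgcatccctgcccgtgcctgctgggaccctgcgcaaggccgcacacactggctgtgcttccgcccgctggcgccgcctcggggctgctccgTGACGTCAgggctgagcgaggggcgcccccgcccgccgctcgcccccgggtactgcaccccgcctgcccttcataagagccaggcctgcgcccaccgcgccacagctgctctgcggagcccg
Scg2 promoter, chr1:79439977-79440276, - strand: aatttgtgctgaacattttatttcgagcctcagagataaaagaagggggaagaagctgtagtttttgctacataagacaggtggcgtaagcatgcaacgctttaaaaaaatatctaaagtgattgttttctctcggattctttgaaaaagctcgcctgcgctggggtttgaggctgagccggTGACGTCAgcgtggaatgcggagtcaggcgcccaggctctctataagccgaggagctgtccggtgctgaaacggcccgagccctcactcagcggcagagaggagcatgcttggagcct
The core TGACG was present in 7 of the 8 windows, with Pcsk1n as the exception, against 20.8% of all promoters. TATAAA was present in the Chga window alone, against 13.6% of all promoters. These are matches of letters in a window, and no binding was measured.

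The libraries held between 11610697 and 17515758 counted reads, and each member was counted between 714 and 228717 times in every library. Of the 37991 rows, 15961 passed the expression filter, and the 10 members were among them. The insulin genes Ins1 and Ins2 took 10.1% to 15.4% of counts in 2w Wt against 1.84% to 4.09% in 2w Tg7 islets. At 12w they took 14.9% to 29.99% in Wt and 8.08% to 8.24% in Tg7 islets. Because this difference moves all other genes, levels are given as CPM, the counts scaled to library size with TMM factors. The 12w Wt libraries were the least alike, with correlations of log2 CPM down to 0.95, and replicate 4 had the lowest insulin share of them. For the members, results at 12w are therefore also given without single 12w Wt libraries where these change the call or the sign. Single genes of the other lists are given without such values. The rows of the 3 miR-7 hairpin genes held at most 30 counts in any library, and Mir7-2 held 0 to 13, so these counts do not check the transgene. The acinar marker list summed to between 9.49 and 26.1 CPM in all 12 libraries, whereas the list of α-cell markers summed to 26200 CPM or more.

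The share of counts that fell on the 10 members was 2.61% to 2.68% in Wt and 2.72% to 2.85% in Tg7 islets at 2w. At 12w they took 1.59%, 2.71% and 3.17% in the Wt libraries 1, 2 and 4, and 3.95% to 4.37% in the Tg7 libraries. The Tg7 libraries lay above the Wt libraries at each age. Without the 7 islet hormone genes in the denominator the shares were 3.16% to 3.45% and 3.09% to 3.23% at 2w, which overlapped. On the same base they were 2.51% to 3.99% and 4.63% to 5.22% at 12w, which did not overlap.

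Levels of different genes were compared as CPM per kb of exon. Chga was the highest member in each group, with 5569 ± 584 in 2w Wt, 4593 ± 371 in 2w Tg7, 6077 ± 1970 in 12w Wt and 6488 ± 449 CPM per kb in 12w Tg7 libraries (SD, n = 3). In 2w Wt islets it was followed by Scg2 (1275), Cpe (1269), Pcsk1n (624), Scg3 (599), Chgb (550), Pcsk2 (489), Scg5 (369), Pcsk1 (121) and Vgf (110 CPM per kb). Of these neighbours the ranges of Scg2 and Cpe overlapped, as did those of Pcsk1n and Scg3 and of Scg3 and Chgb, and the others were apart. In 2w Tg7 islets the order after Chga was Cpe (1355), Pcsk1n (926), Scg2 (886), Chgb (883), Scg3 (579), Pcsk2 (452), Scg5 (445), Vgf (48.2) and Pcsk1 (37.4 CPM per kb). Here the ranges overlapped between Pcsk1n, Scg2 and Chgb, between Pcsk2 and Scg5, and between Vgf and Pcsk1.

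In 12w Wt islets Chga was followed by Scg2 (2284), Cpe (2084), Scg3 (868), Pcsk2 (512), Scg5 (505), Chgb (495), Pcsk1n (433), Pcsk1 (135) and Vgf (69.1 CPM per kb). Scg2 and Cpe overlapped, as did each neighbouring pair from Pcsk2 to Pcsk1n, and Pcsk1 and Vgf. In 12w Tg7 islets Chgb had moved to the place below Chga, with 2559 ± 424, followed by Scg2 (2353), Cpe (2073), Scg3 (1090), Scg5 (813), Pcsk1n (585), Pcsk2 (492), Pcsk1 (87.4) and Vgf (19.1 CPM per kb). The ranges of Chgb, Scg2 and Cpe all overlapped with each other, so their order rests on the means. The ranges of the others were apart. The convertase gene Pcsk1 and the peptide precursor Vgf thus held the lowest places in each group.

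**Figure D1:**
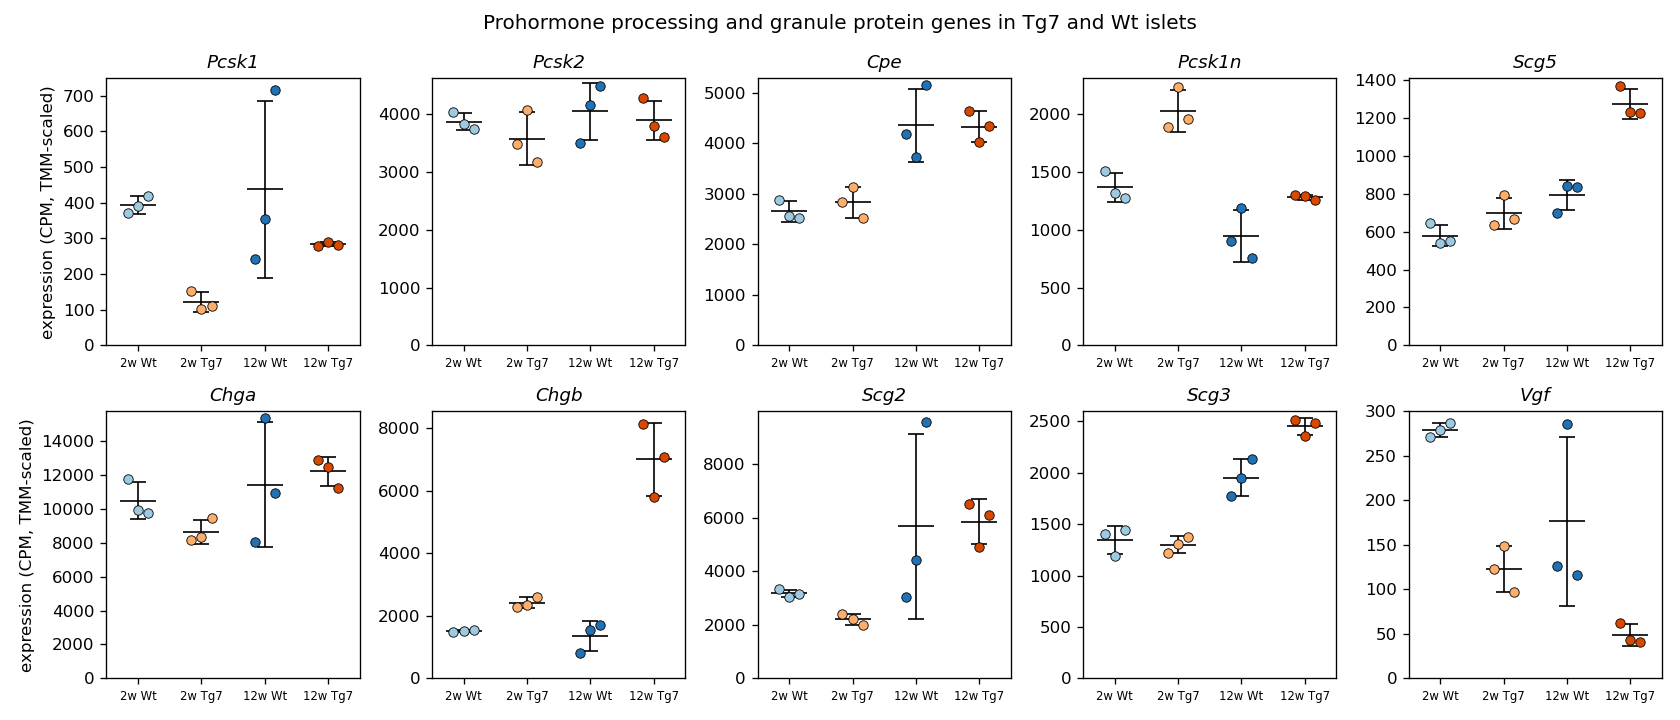
Expression of the 10 members in CPM after TMM scaling (vertical axis, from 0, its own range in each panel) in the 4 groups (horizontal axis). Points are the 3 libraries of a group, the bar is their mean and the whiskers are the SD. Chgb reaches 5811 to 8130 CPM in 12w Tg7 islets against 819.8 to 1711 CPM in 12w Wt islets, and Vgf falls to 40.81 to 62.6 CPM.

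In 2w islets, Tg7 and Wt differed in 3 of the 10 members, against 10.6% of all tested genes. The members were chosen with earlier results of these data known, so such shares are a description. Pcsk1 and Vgf were lower in Tg7 islets, with log2 fold changes (log2FC) of -1.70 and -1.19, and the PC1/3 inhibitor gene Pcsk1n was higher, by 0.57. Members were called with the quasi-likelihood test of edgeR and Benjamini-Hochberg adjustment across the 15961 genes, at a threshold of 0.05. The median log2FC of the members was -0.08, beside 0.03 over all tested genes. The groups did not overlap for 6 members, the called ones and Chga, Chgb and Scg2, beside 35.9% of all tested genes. Scaled by library size alone, which moves the median of all genes by 0.17, the called members were 2 higher and 2 lower, with Chgb added.

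At 12w, 3 of the 10 members were again called, against 23.6% of all tested genes. Chgb was higher in Tg7 islets by 2.37 and Scg5, the PC2 chaperone gene, by 0.69, whereas Vgf was lower (log2FC -1.86). The median log2FC was 0.07, beside -0.01 over all tested genes, and the groups did not overlap for 5 members, beside 37.1% of all tested genes. Pcsk1n and Scg3, with log2FC values of 0.44 and 0.33, were those beyond the called ones. With library size alone, which moves the median of all genes by 0.44, the split was 4 higher and 1 lower, with Pcsk1n and Scg3 added. The comparisons at the 2 ages share no library, but they were fitted in 1 model and share its estimate of the spread.

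**Figure D2:**
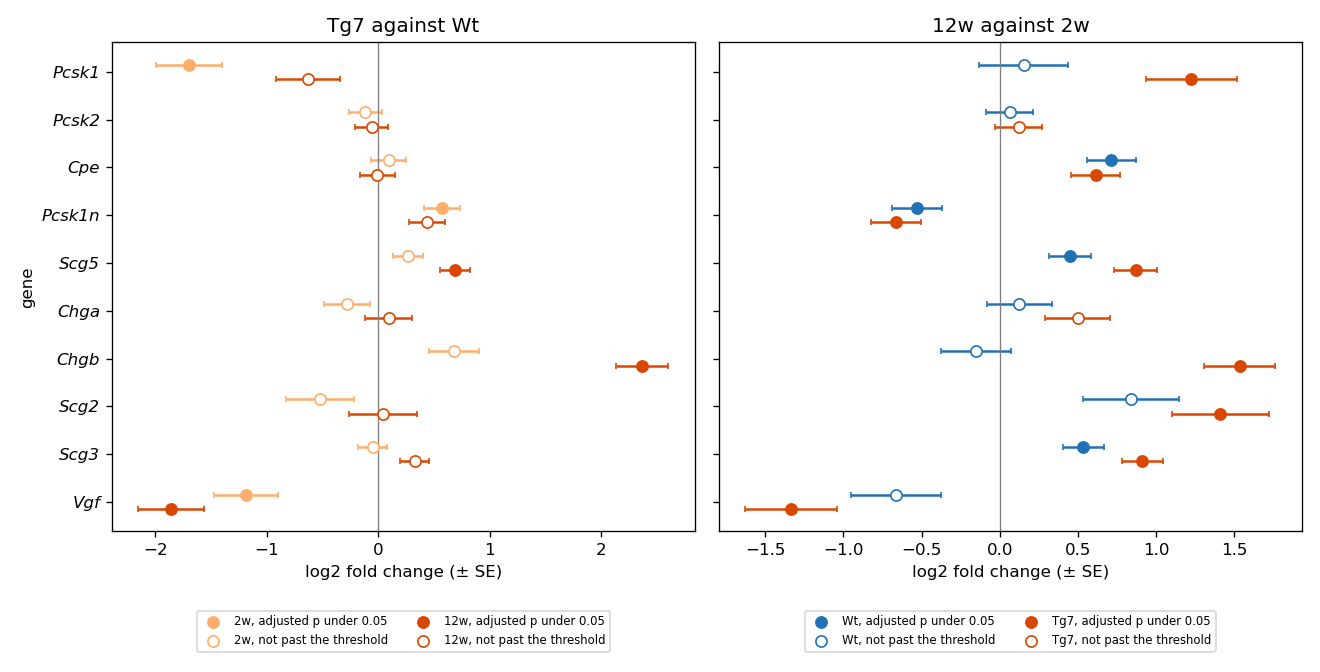
Log2 fold changes of the 10 members with their SE (horizontal axis) for Tg7 against Wt at each age (left) and for 12w against 2w in each genotype (right). Filled points passed an adjusted p of 0.05 and open points did not. Chgb at 12w (2.37) and Pcsk1 at 2w (-1.70) lie farthest from 0 on the positive and the negative side of their ages, and Pcsk2 lies near 0 in each comparison.

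Among the processing enzymes, Pcsk1 was the member that differed most at 2w. Its level was 370.5, 389.6 and 419.1 CPM in the 2w Wt libraries and 151.8, 100.5 and 111.2 CPM in the 2w Tg7 libraries. The groups were far apart, and the log2FC was -1.70 (SE 0.295, adjusted p = 0.00253), which is 0.308 of the Wt level. The call was kept in each of the 20 alternative fits. At 12w Pcsk1 was at 240.8, 353.2 and 716.9 CPM in the Wt libraries 1, 2 and 4 and at 279.1, 289.8 and 281.1 CPM in the Tg7 libraries. The Tg7 values lay inside the range of the Wt values, and the log2FC of -0.63 (SE 0.288, adjusted p = 0.135) did not pass. It was -0.07 without Wt replicate 4 and -0.94 (adjusted p = 0.0142) without Wt replicate 1. The difference between the effects at 12w and 2w was 1.07 (SE 0.407, adjusted p = 0.247). It was 1.64 (adjusted p = 0.00326) without 12w Wt replicate 4 and 0.755 (adjusted p = 0.346) without 12w Wt replicate 1.

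Pcsk2, the other convertase gene, was counted at 3748 to 4033 CPM in 2w Wt against 3174 to 4072 CPM in 2w Tg7 islets, and at 3509 to 4488 and 3609 to 4272 CPM at 12w. These ranges overlapped at each age. The log2FC values were -0.12 (SE 0.15) and -0.06 (SE 0.15) in the chosen scaling. With library size alone they were -0.15 and -0.06 relative to the median of all genes. The exons of Pcsk2 are overlapped on the opposite strand by C630020P19Rik and Gm12360, whose rows held 2832 counts against 737707 for Pcsk2. Cpe, which acts after both convertases, was at 2510 to 2883 CPM in 2w Wt against 2519 to 3131 CPM in 2w Tg7 islets. In the older islets Cpe was at 3722 to 5144 and 4012 to 4632 CPM, so the genotypes overlapped at both ages. Its log2FC values were 0.10 (SE 0.156) at 2w and -0.01 (SE 0.156) at 12w.

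Within a library the ratio of Pcsk1 to Pcsk2 does not depend on the scaling between libraries. Per kb of exon it was 0.248 ± 0.0244 in 2w Wt against 0.0841 ± 0.0232 in 2w Tg7 islets (SD, n = 3), and no library of one group reached the other. At 12w it was 0.255 ± 0.118 and 0.179 ± 0.0168, and the ranges overlapped. The ratios were chosen after the values were seen and carry no test.

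The genes of the convertase partners, Pcsk1n and Scg5, had positive log2FC values at both ages, and each was called at 1 of them. Pcsk1n was at 1510, 1322 and 1273 CPM in the 2w Wt libraries and at 1895, 2237 and 1963 CPM in the 2w Tg7 libraries. The Tg7 libraries were all higher, with a log2FC of 0.57 (SE 0.161, adjusted p = 0.0385), that is 1.48-fold. This call was lost when any 2w library or any 12w Tg7 library was left out, with adjusted p values from 0.0502 to 0.157 in those fits. At 12w Pcsk1n was at 900.2, 1193 and 752.7 CPM in Wt and 1301, 1290 and 1256 CPM in Tg7 islets. The groups did not overlap, and the log2FC of 0.44 (SE 0.161, adjusted p = 0.0663) did not pass in the chosen scaling. Without 12w Wt replicate 2, the highest of the Wt libraries, it was 0.64 (adjusted p = 0.00755). Without replicate 1 it was 0.38 (adjusted p = 0.142), and without replicate 4 it was 0.30 (adjusted p = 0.147). The ratio of Pcsk1n to Pcsk1 per kb was 5.18 ± 0.779 in 2w Wt, 25.8 ± 7.24 in 2w Tg7, 4.02 ± 2.16 in 12w Wt and 6.69 ± 0.173 in 12w Tg7 libraries (SD, n = 3). It was highest in the 2w Tg7 libraries, at 18.4 to 32.9, and at most 6.89 in the other 3 groups.

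Scg5 was at 644.2, 540.7 and 552.8 CPM in 2w Wt against 637.1, 791.3 and 665.5 CPM in 2w Tg7 islets, which overlapped (log2FC 0.27, SE 0.135, adjusted p = 0.218). The 12w levels of Scg5 were 699.5, 841.9 and 835.2 CPM in Wt and 1367, 1232 and 1226 CPM in Tg7 islets. The 12w Tg7 libraries lay above the Wt libraries of both ages. Scg5 was thus 1.61-fold higher (log2FC 0.69, SE 0.135, adjusted p = 0.00244), and the call was kept in each of the 20 alternative fits. Per kb, Scg5 relative to Pcsk2, the enzyme that its protein chaperones, was 0.753 ± 0.0478 in 2w Wt against 0.987 ± 0.067 in 2w Tg7 islets. At 12w this ratio was 0.988 ± 0.0443 in Wt and 1.65 ± 0.0511 in Tg7 islets (SD, n = 3), without overlap at either age.

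**Figure D3:**
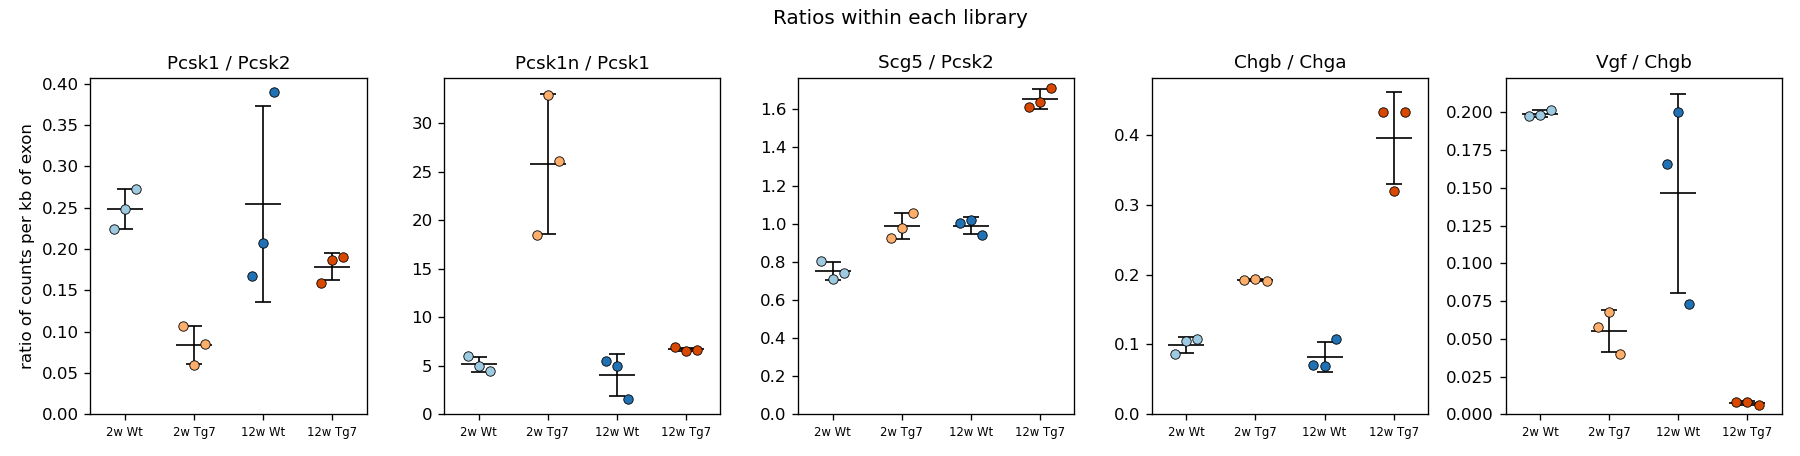
Ratios between members within each library, as counts per kb of exon (vertical axes, from 0), in the 4 groups. Points are libraries, bars are means and whiskers are the SD of 3 libraries. Pcsk1n relative to Pcsk1 peaks in 2w Tg7 islets, Chgb relative to Chga rises to 0.395 ± 0.0654 in 12w Tg7 islets, and Vgf relative to Chgb is lowest there.

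Among the granins, Chgb changed most. Chromogranin B was counted at 1475, 1512 and 1531 CPM in the 2w Wt libraries and at 2276, 2360 and 2618 CPM in the 2w Tg7 libraries. The groups were apart at 2w, but the log2FC of 0.68 (SE 0.224, adjusted p = 0.0652) did not pass. It passed in 8 of the 20 alternative fits, among them DESeq2, library size alone and those without 12w Wt replicate 1 (adjusted p = 0.0058) or 4 (adjusted p = 0.0276). At 12w Chgb was at 819.8, 1535 and 1711 CPM in Wt and at 8130, 5811 and 7096 CPM in Tg7 islets. Each 12w Tg7 library was above each other library, and the log2FC was 2.37 (SE 0.234, adjusted p = 1.08e-05), or 5.17-fold. Among all tested genes, 97.6% had a lower log2FC at 12w. Without single 12w Wt libraries the value lay between 2.09 and 2.58.

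The Tg7 effect on Chgb was larger at 12w than at 2w by 1.69 on the log2 scale (SE 0.317, adjusted p = 0.0195). Chgb was the single member called in this test of the difference, against 1.18% of all tested genes. The call was lost, with adjusted p from 0.0568 to 0.065, without 2w Wt replicate 2 or 3 or 12w Tg7 replicate 1 or 3. Without 12w Wt replicate 4, Pcsk1 and Scg2 were called as well, making 3 members.

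Chromogranin A, the most abundant member, was not called at either age. Chga was at 11750, 9921 and 9776 CPM in 2w Wt against 8142, 8348 and 9443 CPM in 2w Tg7 islets. The Tg7 libraries were lower without overlap, with a log2FC of -0.28 (SE 0.209, adjusted p = 0.428). The 12w levels of Chga were 8019, 15370 and 10920 CPM in Wt and 12890, 12480 and 11260 CPM in Tg7 islets, inside the wide Wt range (log2FC 0.09, SE 0.209). Without 12w Wt replicate 1 this log2FC was -0.129, and without replicate 2 it was 0.367. Per kb, the ratio of Chgb to Chga was 0.0995 ± 0.0116 in 2w Wt against 0.192 ± 0.00186 in 2w Tg7 islets. Its 12w values were 0.0821 ± 0.0221 in Wt and 0.395 ± 0.0654 in Tg7 islets (SD, n = 3). The ratio was higher in each Tg7 library than in each Wt library of its age.

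Scg2, the secretogranin II gene, was at 3318, 3032 and 3153 CPM in 2w Wt against 2409, 2198 and 1994 CPM in 2w Tg7 islets. The groups were apart, and the log2FC was -0.53 (SE 0.305, adjusted p = 0.292). Without 12w Wt replicate 4, which enters the shared estimate of the spread, the adjusted p was 0.0325. At 12w the Wt libraries 1, 2 and 4 were at 3021, 4421 and 9586 CPM and the Tg7 libraries at 6524, 4917 and 6101 CPM. Replicate 4 set the upper end of the Wt range. The log2FC of 0.04 (SE 0.304) became 0.66 (adjusted p = 0.0161) without that library and -0.29 without Wt replicate 1.

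Scg3, a sorting partner of Chga in the granule membrane, was at 1194 to 1440 CPM in 2w Wt against 1221 to 1378 CPM in 2w Tg7 islets. The 12w levels of Scg3 were 1775, 1947 and 2134 CPM in Wt and 2510, 2361 and 2481 CPM in Tg7 islets. The 12w groups did not overlap, but the log2FC of 0.33 (SE 0.13, adjusted p = 0.0856) did not pass. Without Wt replicate 4 it was 0.40 (adjusted p = 0.0308), and without Wt replicate 1 it was 0.24 (adjusted p = 0.189).

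Vgf was lower in Tg7 islets at both ages. Its level was 271.8, 279.2 and 287.5 CPM in 2w Wt against 123.2, 148.7 and 97.08 CPM in 2w Tg7 islets. The log2FC was -1.19 (SE 0.289, adjusted p = 0.0188), or 0.44 of the Wt level. At 12w Vgf was at 126.6, 286.3 and 116.1 CPM in Wt and at 62.6, 42.9 and 40.81 CPM in Tg7 islets. No Tg7 library reached the Wt range at either age. At 12w the difference was -1.86 (log2FC, SE 0.297, adjusted p = 0.000535), and it was -1.31 without Wt replicate 2, the highest library. The call at 12w was kept in each alternative fit, and that at 2w was lost without 2w Wt replicate 1 or 3 or 2w Tg7 replicate 3 (adjusted p from 0.0513 to 0.0754). The difference between the ages was -0.67 (SE 0.406, adjusted p = 0.488), and -0.12 without 12w Wt replicate 2. Relative to Chgb per kb, Vgf was at 0.199 ± 0.00206 in 2w Wt, 0.0552 ± 0.0142 in 2w Tg7, 0.146 ± 0.0659 in 12w Wt and 0.00745 ± 0.00112 in 12w Tg7 libraries (SD, n = 3).

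Islets are a mixture, and in such bulk samples fewer cells of a type and less RNA per cell cannot be told apart. The β-cell marker list (Ins1, Ins2, Mafa, Slc2a2, Ucn3, G6pc2, Nkx6-1 and Pdx1) fell in 8 of 8 genes at 2w and in 7 of 8 at 12w, Pdx1 being the exception. Its summed level was 96600 to 162000 CPM in 2w Wt against 15900 to 37600 CPM in 2w Tg7 islets, and 175000 to 443000 and 75200 to 78400 CPM at 12w. Most of this sum is Ins1 and Ins2, with means of 34960 and 83060 CPM in 2w Wt islets, so it largely repeats the insulin share. Of the 8 α-cell markers, Gc alone was called, higher in Tg7 islets at both ages, and the summed level of the list was 35900 to 48600 CPM in 2w Wt against 45300 to 82700 CPM in 2w Tg7 islets. At 12w the α-cell list summed to 26200 to 47000 CPM in Wt and 30800 to 45100 CPM in Tg7 islets. Gcg made up most of the α-cell sum, with a mean of 40690 CPM in 2w Wt islets. Of the markers of other cells, 5 of 5 endothelial and 5 of 6 stellate cell and fibroblast markers were higher in Tg7 islets at 12w, and 4 of the latter 6 at 2w. Single markers called besides these were Ppy of the PP cells, higher at 2w by 1.03, Spp1 of the ductal list and Sox10 and Ngfr of the Schwann cell list, higher at 12w by 1.33, 2.15 and 2.24, and Csf1r of the macrophage list, lower at 12w (-0.72). Of the acinar list Cpb1 was called at 2w, with 0 CPM in each Wt library and a mean of 1.23 CPM in Tg7 islets. The list summed to 9.49 to 11.8 CPM in 2w Wt against 20.8 to 26.1 CPM in 2w Tg7 islets, most of it Cela1 (means 9.80 and 17.2 CPM). The endothelial list then summed to 319 to 442 CPM in 12w Wt against 679 to 734 CPM in 12w Tg7 islets, and the stellate cell and fibroblast list to 80.1 to 144 and 340 to 346 CPM. The part of these cell types in the members' results was not tested. Relative to insulin RNA, Chgb was at 1.35 ± 0.372 counts per 100 counts of Ins1 and Ins2 in 2w Wt against 11.2 ± 5.34 in 2w Tg7 islets. The 12w values were 0.548 ± 0.417 and 9.18 ± 1.33 (SD, n = 3). The insulin RNA in this ratio is itself lower in Tg7 islets, and Chga, called at neither age, was higher on this base too. Chga was at 9.2 ± 1.6 in 2w Wt against 40.2 ± 19.5 in 2w Tg7 islets, and at 4.26 ± 2.3 and 16 ± 1.14 at 12w.

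Between 2w and 12w, 4 of the 10 members changed in Wt islets, against 15.8% of all tested genes. Cpe, Scg3 and Scg5 rose, by 0.72, 0.54 and 0.45 on the log2 scale, and Pcsk1n decreased by 0.53. Cpe went from 2883, 2552 and 2510 CPM to 4179, 3722 and 5144 CPM (SE 0.156, adjusted p = 0.00732). The 2 ages did not overlap for these 4 genes, beside 31.4% of all tested genes. The split of 3 higher and 1 lower was 0 higher and 2 lower with library size alone (Pcsk1n and Vgf), which moves the median of all genes by -0.39, and 1 and 1 without the hormone genes in the library size. Relative to that median, Cpe, Scg3 and Scg5 were at 0.68, 0.50 and 0.42. Of 12 fits with 1 library left out, the call of Cpe was lost in 0, that of Scg3 in 1, that of Scg5 in 7 and that of Pcsk1n in 8. Scg2 was called at 1.16 without 12w Wt replicate 1, and Vgf at -1.21 without 12w Wt replicate 2. Without 12w Wt replicate 4, Scg2 was at 0.23 (adjusted p = 0.362) and Vgf at -0.44 (adjusted p = 0.264). Fitted without the Tg7 libraries, edgeR called 0 of the 10 members, with 5 at an unadjusted p below 0.05 and a lowest adjusted p of 0.0739, whereas DESeq2 on all libraries called 5.

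In Tg7 islets 8 of the 10 members changed with age, against 13.0% of all tested genes. Chgb, Scg2, Pcsk1, Scg3, Scg5 and Cpe rose, by 1.54 (SE 0.228), 1.41 (SE 0.31), 1.23 (SE 0.291), 0.91 (SE 0.131), 0.87 (SE 0.136) and 0.61 (SE 0.156) on the log2 scale, with adjusted p values from 0.000528 to 0.0187. Pcsk1n fell by 0.66 (SE 0.162, adjusted p = 0.0149) and Vgf fell by 1.33 (SE 0.293, adjusted p = 0.00826). Pcsk2 and Chga, with 0.12 and 0.50, were not called (adjusted p = 0.641 and 0.139). The ages did not overlap for 9 members, Pcsk2 being the exception, beside 40.7% of all tested genes. The median log2FC of the members was 0.74, beside -0.01 over all tested genes. The test of the difference given above also compares the changes with age between the genotypes, and it called Chgb alone. The larger count in Tg7 than in Wt islets is therefore not shown to be a difference for the other members. For Cpe and Pcsk1n the changes were 0.72 and -0.53 in Wt and 0.61 and -0.66 in Tg7 islets. The count lay between 6 and 9 in the alternative fits. With 1 library left out, the calls of Cpe and Pcsk1n were each lost in 4 of 12 fits and that of Pcsk1 in 1. Since these contrasts use the libraries of the Tg7 and Wt comparisons again, the values are given beside those and not as separate evidence. Markers of other cells also moved with age. In Wt islets 5 of 5 endothelial, 4 of 6 stellate cell and fibroblast and 4 of 8 α-cell markers were lower at 12w, with median log2FC values of -1.22, -2.41 and -0.61 over these lists. In Tg7 islets 1 of 5, 4 of 6 and 4 of 8 were lower, and the medians were -0.42, -0.91 and -0.77. Gc of the α-cell list went the other way, higher at 12w by 1.15 in Wt and by 1.67 in Tg7 islets. Of 5 macrophage markers 2 were higher at 12w in Wt and 1 in Tg7 islets, and 0 were lower. Some markers of the δ-cell, PP and epsilon cell, acinar, ductal and Schwann cell lists were also called in 1 genotype or both. Of the 8 β-cell markers 3 were higher at 12w in each genotype. Their part in the change of the members with age was not tested.

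The rest of the granule pathway was read from 4 lists, of which 72 of 75 genes were tested. At 2w, 6 of these genes were higher and 14 lower in Tg7 islets, and at 12w 17 were higher and 12 lower. With library size alone, which moves all genes as given above, the splits were 10 higher and 7 lower at 2w and 30 and 7 at 12w. Without the hormone genes in the library size they were 6 and 11 at 2w and 20 and 8 at 12w. In the chosen scaling the called genes were 27.8% of the tested pathway genes at 2w and 40.3% at 12w, beside 10.6% and 23.6% of all genes. The lists were chosen with earlier results of these data known, so these shares describe them and are no separate evidence. The lists hold hormone genes and β-cell genes, and the fall of the β-cell markers given above moves with them. Its part was not tested.

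Among 18 other processing enzymes, 4 were higher and 3 lower at 12w. Qpct, which forms the pyroglutamate end of peptides, was at 3.73 ± 1.06 CPM in 12w Wt against 27.9 ± 5.24 CPM in 12w Tg7 islets (log2FC 2.91, adjusted p = 1.27e-06). It was also higher at 2w, by 2.18 (adjusted p = 3.02e-05). Pam, the enzyme that amidates peptides, and Tpst1, a tyrosine sulfotransferase, rose by 0.81 and 0.75 at 12w, and their values at 2w were 0.03 and 0.31. Cpm, a carboxypeptidase of the cell surface, was lower at both ages (-1.49 at 12w, -1.07 at 2w). Ece2, an endothelin-converting enzyme, was also lower at both ages (-0.80 at 12w, -0.80 at 2w).

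Of 17 granule membrane genes, 4 were higher and 3 lower at 12w. The vesicular monoamine transporter gene Slc18a1 was at 110.5 ± 38.6 CPM in Wt and 23.6 ± 3.24 CPM in Tg7 islets, a log2FC of -2.23 (adjusted p = 0.000119). The zinc transporter gene Slc30a8 was at 576.3 ± 77.7 CPM in Wt islets (SD, n = 3) and had a log2FC of -1.53 (adjusted p = 3.93e-06). Atp6ap2, a subunit associated with the proton pump, was lower (-0.48). Tmem27, Syt9 and Sv2b, all proteins of the vesicle or cell membrane, were higher by 0.91, 0.86 and 0.72. Tmem27 and Sv2b were called at 2w as well, at 0.71 and 0.67, and Syt9 was not (-0.09).

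Of 13 genes for granule biogenesis, Sdf4 was higher at 12w, by 0.75, and Ero1lb, Rundc1 and Rab2a were lower (-2.49, -0.40 and -0.36). Rundc1 was called at 2w as well (-0.61), and Sdf4 and Rab2a were not. Ero1lb, the oxidase that forms disulfide bonds in proinsulin, fell from 1665 ± 460 to 296 ± 9.16 CPM (SD, n = 3), and its value at 2w was -2.41. Among 24 genes for peptide cargo, 8 were higher and 3 lower at 12w. Ucn3 (-4.96), Ins1 (-3.85) and Ins2 (-1.71) were the lower ones. Cck, Gast and Penk, which encode cholecystokinin, gastrin and proenkephalin, were higher by 3.41 (adjusted p = 0.016), 3.20 (adjusted p = 0.000111) and 3.15 (adjusted p = 0.00484). These 3 genes were low, with 11, 17 and 12 counts summed over the 12w Wt libraries and 166, 233 and 159 over the 12w Tg7 libraries. For Cck, 2 of the 12w Wt libraries held no count. Of 6 regulators of granule genes, Neurod1 was lower at 12w (-0.74, adjusted p = 0.00121), and the other 5 did not pass there. At 2w Neurod1 did not pass (-0.43, adjusted p = 0.0531). Insm1, named after its values were seen, was the 1 regulator called at 2w (-0.72, adjusted p = 0.0133).

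**Figure D4:**
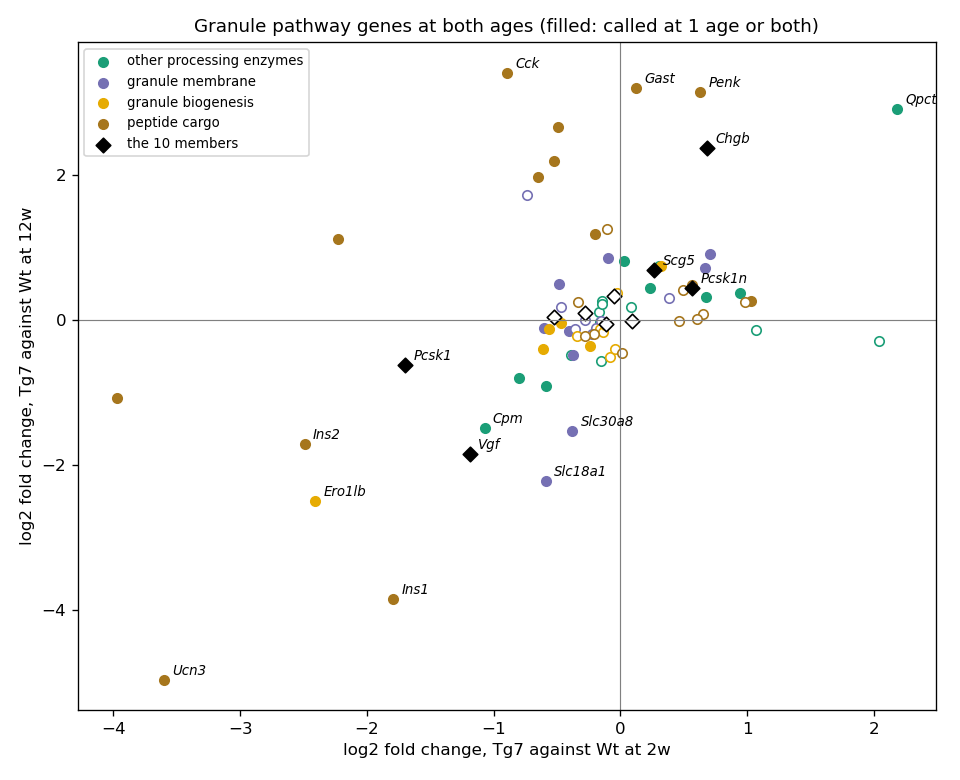
Log2FC of Tg7 against Wt at 2w (horizontal axis) and at 12w (vertical axis) for the 72 tested genes of the 4 pathway lists (circles, coloured by list) and the 10 members (black diamonds). Filled symbols passed an adjusted p of 0.05 at 1 age or both. Ucn3, Ins1, Ins2 and Ero1lb lie at the lower left, Qpct at the upper right, and Chgb above the other members.

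Gene profiles were compared over the 12 libraries by Pearson's r of log2 CPM, for the members with the highest and the lowest mean of the log2FC values at the 2 ages, Chgb (1.53) and Vgf (-1.52). The 5 tested genes most like Chgb were Slc39a11, Nab2, Stambpl1, Agap2 and Drp2, with r from 0.961 to 0.978. At 12w these were higher in Tg7 islets by 1.69, 1.65, 1.26, 2.62 and 6.03 on the log2 scale. The 5 most like Vgf were Trim67, Cntrob, Sphk2, Itgb5 and Nfil3, with r from 0.947 to 0.97. Their log2FC values at 12w were -0.99, -1.73, -0.49, -0.55 and -1.10. The libraries share the 4 groups and the scaling, so these r describe likeness of profile and no test is attached.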

How the data were processed

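The authors sequenced RNA of pooled islets as paired-end reads and deposited raw counts per Ensembl gene for 12 libraries, without normalization. Per the submitters' processing notes, bcl2fastq 2.20.0, Trimmomatic, TopHat2 2.0.11 and featureCounts were used on NCBIM37 (mm9). No source used here gives the annotation release or the strand setting of the counting, so reads of overlapping genes on opposite strands cannot be told apart. A group was read from each sample's title.

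Genes passing filterByExpr (minimum count 10, minimum total 15) were scaled by TMM and fitted in 1 model of the 4 groups with edgeR 4.0.16 (limma 3.58.1, R 4.3.3) by glmQLFit and glmQLFTest, with Benjamini-Hochberg adjustment over 15961 genes. The fitted contrasts set Tg7 against Wt within an age, the 12w against the 2w effect, and 12w against 2w within a genotype. The SE was taken as the log2 fold change over the root of F. For log2 CPM the prior count was 2. Exon lengths and positions came from GENCODE vM1, and 4 genes of the pathway lists were matched through older symbols. The steps were tested on simulated data.

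The members and gene lists were chosen with earlier results of these data known. Named genes were the members, and from each pathway list 3 genes at either end of the log2 fold changes called at 12w, with the 5 genes most like Chgb and Vgf. One result under this rule is not reported here. Alternatives were DESeq2 1.42.0, library size alone, upper-quartile factors, library size without 7 hormone genes (Ins1, Ins2, Iapp, Gcg, Sst, Ppy and Pyy), no filter, a stricter filter (50 counts in 3 libraries), each age or genotype alone, replicate number as a block, and each library left out. Figures were drawn with Python 3.11.15 and matplotlib 3.10.9.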

Additional observations from a re-analysis of the deposited data

Results flagged for a closer look

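The test of the difference between the Tg7 effects at 12w and at 2w called 1 member and 2 of the other named genes. For Chgb the effect was larger at 12w by 1.69 on the log2 scale (adjusted p = 0.0195 by edgeR), with groups that did not overlap at either age. For the zinc transporter gene Slc30a8 the difference was -1.15 (adjusted p = 0.00782), from -0.38 at 2w to -1.53 at 12w. For Gast it was 3.07 (adjusted p = 0.0165), from 0.13 at 2w to 3.20 at 12w, where the Wt libraries held 3 to 9 counts each. Both genotypes moved with age, with log2FC values of -1.52 (adjusted p = 0.0274) in Wt and 1.55 (adjusted p = 0.0116) in Tg7 islets.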

How the results depend on the processing

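Chgb, Scg5 and Vgf at 12w and Pcsk1 at 2w were called in each of the 20 alternative fits. The count of members called at 2w was 3, and 5 with each age fitted alone (Chgb and Scg2 added). It was 1 to 5 with a library left out, 1 (Pcsk1) without 2w Wt replicate 1 or 3 or 2w Tg7 replicate 3, and 5 without 12w Wt replicate 4. At 12w it was 3, and 5 with DESeq2, library size alone, upper-quartile factors or library size without hormone genes (Pcsk1n and Scg3 added), and 3 to 5 with a library left out, with 5 without 12w Wt replicate 4 (Scg2 and Scg3 added). For the difference between the ages the count was 1, and 0 to 3 with a library left out. The count with age was 4 in Wt, but 2 with library size alone, 2 without hormone genes, 0 with each genotype alone and 1 to 4 with a library left out, with 1 (Cpe) without 2w Wt replicate 2 and 2 without 2w Wt replicate 3 or any 12w Tg7 library. In Tg7 it was 8, and 6 to 9 with a library left out. Of the other pathway genes 20 were called at 2w, 12 to 27 with a library left out and 12 without 2w Wt replicate 2 or 3, and 29 at 12w, 21 to 31 with a library left out.

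Replicate numbers were not used as pairs in the chosen fit. Residual correlations of same-number libraries were -0.167 to -0.011 between genotypes. Between ages they were -0.114 and -0.036 in Wt, and -0.012, 0.13 and 0.183 in Tg7. Libraries of different number were not compared, so these values cannot decide whether the numbers pair the samples. Number 4 belongs to 1 library, so the fit with the replicate number as a block takes 12w Wt replicate 4 out. In it, members called were 4 at 2w, 4 at 12w, 3 for the difference, 2 with age in Wt and 8 with age in Tg7.

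Uncalled values changed sign as follows, on the log2 scale. With library size alone, Pcsk2 was 0.047 at 2w and 0.372 at 12w, Scg3 0.117 at 2w and Cpe 0.426 at 12w, with differences of 0.166 for Cpe and 0.15 for Pcsk1n, and changes with age in Wt of -0.248 for Chga, -0.189 for Pcsk1 and -0.317 for Pcsk2. Without hormone genes, Scg3 was 0.007 at 2w, Cpe 0.178 and Pcsk2 0.121 at 12w, the Cpe difference 0.027, and the changes in Wt -0.05 for Chga, -0.046 for Pcsk1 and -0.125 for Pcsk2. With upper-quartile factors, Scg3 was 0.008 at 2w, and Cpe 0.088 and Pcsk2 0.035 at 12w. With the stricter filter Cpe was 0.017 at 12w. With the replicate block, Cpe was 0.171 and Pcsk2 0.077 at 12w, the Cpe difference 0.075, and the changes in Wt -0.41 for Pcsk1 and -0.071 for Pcsk2. With a library left out, the ranges at 12w were -0.108 to 0.135 for Cpe, -0.175 to 0.026 for Pcsk2, -0.129 to 0.367 for Chga and -0.287 to 0.656 for Scg2. Those of the difference were -0.198 to 0.044 for Cpe, -0.269 to 0.069 for Pcsk1n and -0.059 to 0.166 for Pcsk2. Those of the change in Wt were -0.149 to 0.336 for Chga, -0.361 to 0.118 for Chgb, -0.409 to 0.458 for Pcsk1 and -0.021 to 0.169 for Pcsk2. With library size alone the median of all genes moved by 0.17 at 2w, 0.44 at 12w, 0.27 for the difference and -0.39 with age in Wt. Relative to that median no member moved by more than 0.063, and with the other scalings by no more than 0.032. The cause of the changes under the other settings was not tested. With 3 pools a group, values near 0 are not shown to be equal.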

Other observations

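In the list of peptide cargo, the test of the difference between the ages called 6 of 24 genes, all with a higher value at 12w, beside 1.18% of all tested genes. They were Pdyn, Vip, Gast, Cartpt, Tac1 and Nucb2, and Gast apart they were named after their values were seen. The list itself was chosen with earlier results of these data known, so its share describes it and is no separate evidence. Pdyn, the prodynorphin gene, was lower in Tg7 islets at 2w by 2.23 (adjusted p = 0.00631) and higher at 12w by 1.12 (adjusted p = 0.0161), a difference of 3.35 (adjusted p = 0.00791 by edgeR). Its 2w levels were low, at 4.68 ± 3.18 CPM in Wt and 1.04 ± 0.609 CPM in Tg7 islets (SD, n = 3). At 12w they were 141.3 ± 14.4 and 307.5 ± 25.2 CPM. Vip and Cartpt, which encode vasoactive intestinal peptide and the CART prepropeptide, had differences of 3.15 (adjusted p = 0.0458) and 2.72 (adjusted p = 0.0153). These genes were also low at 2w, with Vip at 9.505 ± 2.05 CPM in Wt and 6.88 ± 6.73 CPM in Tg7 islets. Cartpt was then at 2.70 ± 0.735 and 1.92 ± 1.04 CPM. For Tac1, the substance P precursor gene, and Nucb2, the nesfatin precursor gene, the differences were 2.62 (adjusted p = 0.0422) and 1.38 (adjusted p = 0.0143). In Wt islets Tac1 fell with age, from 6.91 ± 3.66 to 1.285 ± 0.0941 CPM (log2FC -2.43, adjusted p = 0.00182). In Tg7 islets Tac1 was at 4.40 ± 1.59 and 5.02 ± 0.969 CPM, and its change with age was not called (log2FC 0.19). In the granule membrane list Ptprn, also named after its values were seen, was lower at 2w by 0.48 (adjusted p = 0.0311) and higher at 12w by 0.50 (adjusted p = 0.0135).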
